A study of Mus musculus with 15 samples.

Results

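Lipid droplet coat and assembly proteins were followed through 9 genes of mouse macrophages: Plin2, Plin3, Plin4, Plin5, Cideb, Hilpda, Fitm1, Fitm2 and Bscl2. Every probe annotated with 1 of these symbols in the authors' normalized value table was used, which gave 12 of its 25784 probes, for 9 of the 13676 genes it names. Hilpda had 2 probes, Fitm2 had 3, and each of the other genes had 1. The cells were peritoneal macrophages drawn into the abdominal cavity by 3% thioglycollate, an irritant broth, and harvested on day 4 or 5. They were cultured in medium with 0.5% serum and 5.5 mM glucose. Unstimulated cells (Unstim) received vehicle and gave 3 arrays, from experiments 1, 3 and 4. Cells loaded with fatty acid and then given vehicle (FA), cells given bacterial lipopolysaccharide at 10 ng/ml for 24 h (LPS), and loaded cells given the same LPS for the same time (FA+LPS) gave 4 arrays each, from experiments 1 to 4. The sources used here name neither the fatty acid nor its dose, nor how many mice stood behind an experiment. By its title, the series asks how agonists of Toll-like receptors 2 and 4 lengthen the time that macrophages hold on to triglyceride.

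A lipid droplet is a core of neutral lipid, mostly triglyceride and cholesteryl ester, under a single layer of phospholipid. Droplets form in the membrane of the endoplasmic reticulum, where seipin (the product of Bscl2) and the FITM proteins act, and the perilipins (Plin) then coat the surface and govern the access of lipases. In macrophages that take up lipid, perilipin 2 is the coat protein best known for following the amount of stored fat. HILPDA is a small droplet protein that inhibits adipose triglyceride lipase, and its gene is known for induction by hypoxia and by fatty acids through PPAR receptors.

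The promoters of Plin2 and Hilpda are shown because these 2 genes had the largest differences with fatty acid among the members, and both are known as targets of PPAR and hypoxia-inducible factors. Each sequence runs 5′ to 3′ on the strand of the gene, from 250 bases before an annotated start to 20 bases after it, from RefSeq on build GRCm38.p6.
Plin2, chr4:86670040-86670309, minus strand: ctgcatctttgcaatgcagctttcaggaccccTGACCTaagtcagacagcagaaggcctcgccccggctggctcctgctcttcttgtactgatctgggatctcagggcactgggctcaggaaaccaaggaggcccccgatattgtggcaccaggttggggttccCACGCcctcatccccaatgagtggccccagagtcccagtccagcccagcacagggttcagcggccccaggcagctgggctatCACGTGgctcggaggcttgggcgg
Hilpda, chr6:29272376-29272645, plus strand: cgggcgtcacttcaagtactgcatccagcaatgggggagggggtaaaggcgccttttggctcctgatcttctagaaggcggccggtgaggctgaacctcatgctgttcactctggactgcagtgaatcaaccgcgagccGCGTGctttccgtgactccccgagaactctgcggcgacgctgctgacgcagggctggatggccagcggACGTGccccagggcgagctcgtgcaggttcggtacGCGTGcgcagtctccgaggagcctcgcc
Capitals mark every match, on either strand, to ACGTG or GCGTG, the cores of the hypoxia response element, and to AGGTCA, the nuclear receptor half-site. CACGTG, the E-box, contains ACGTG on both strands and so overlaps it. The Plin2 sequence held CACGTG at bases -4 to 2 around the start, GCGTG on the opposite strand at -86 to -82 and AGGTCA on the opposite strand at -218 to -213. The Hilpda sequence held ACGTG at -43 to -39 and GCGTG at -111 to -107 and again at -8 to -4. RefSeq lists another Hilpda start upstream, with the window chr6:29272238-29272537. It held GCGTG at 28 to 32, the same bases as -111 to -107 of the window shown, and no ACGTG or AGGTCA. The window shown was chosen with these matches known. Of all 32851 RefSeq promoter windows, which reach 50 bases after the start, 19.6% held ACGTG, 32.4% GCGTG, 7.15% CACGTG and 16.3% AGGTCA. The matches describe letters in these windows and carry no measurement of binding.

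The arrays carried the macrophage label they were given. Of 12 macrophage markers 11 were tested, and 10 of them were above background on all 15 arrays, among them Lyz2 (lysozyme), Cd14 (a receptor that passes LPS to Toll-like receptor 4) and Adgre1 (the surface receptor used to mark mouse macrophages). Their summed signal was 27370 to 30040 in Unstim, 27110 to 29870 in FA, 21020 to 27800 in LPS and 23750 to 36820 in FA+LPS. With LPS against Unstim 4 of the 11 were called (adjusted p below 0.05) higher and 3 lower, where 8.62% and 12.8% of all genes were. Median scaling left 2 higher and 0 lower. Of 10 adipocyte markers 5 were tested, and Plin1, Cidec, Cfd, Retn and Slc2a4 were absent from the value table. The summed signal of the 5 tested lay between 332 and 368 in every group. Each of them had a mean log2 signal between 5.98 and 6.31, a dim level at which the sum could show little change. Adipoq, the hormone that defines adipocytes, was above background on 3 arrays, Fabp4 on 7, Pck1 on 12, and Lep and Lipe on 15. The summed neutrophil markers read 717 to 825 in Unstim, 750 to 829 in FA, 1037 to 1427 in LPS and 1488 to 2376 in FA+LPS. S100a8, which stimulated macrophages also express, was 2.20 ± 0.22 higher on the log2 scale in FA+LPS than in Unstim (adjusted p = 4.65e-06). Of 11 neutrophil markers 7 were tested. In that comparison 2 were called higher and 1 lower, where 7.32% and 10.5% of all genes were. The median difference of the 7 was 0.0076. The mesothelial and fibroblast markers summed to 570 to 594 in Unstim, 558 to 590 in FA, 866 to 1108 in LPS and 795 to 1205 in FA+LPS. Dcn (decorin) was 2.26 ± 0.23 higher in LPS than in Unstim (adjusted p = 4.63e-06). It alone was called there among the 8 tested markers of its list, where 8.62% of all genes rose and 12.8% fell. The median difference of the 8 was -0.0055. The B cell markers summed to between 604 and 833 in all groups. With LPS against Unstim 1 of the 4 tested B cell markers and 1 of the 5 adipocyte markers were called lower, where 12.8% of all genes were. In both lists 0 were called higher. Of the 9 T and NK cell markers Il7r (the interleukin 7 receptor chain) alone was tested, with a mean log2 signal of 10.0 and above background on all 15 arrays. Il7r was lower with LPS, as Plin2, Plin3 and Bscl2 were, by -1.10 ± 0.27 for LPS against Unstim (adjusted p = 0.0101), -1.28 ± 0.25 for FA+LPS against FA (0.00220) and -1.35 ± 0.27 for FA+LPS against Unstim (0.00284). These 3 Il7r calls were lost with median scaling, at 0.309, 0.286 and 0.193, and the first also without Unstim replicate 1 (0.0617). The part of other cells in the results below was not tested. In bulk cultures fewer cells of a type and less RNA per cell cannot be told apart. FA replicate 1 stood apart from the rest, with 15781 probes above background against 17970 to 18998 on the other 14 arrays. Before normalization the 95th percentile of its log2 signals was 7.77, against 8.53 to 9.57 on the other arrays. Arrays of a group correlated at 0.972 to 0.993.

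**Figure D1:**
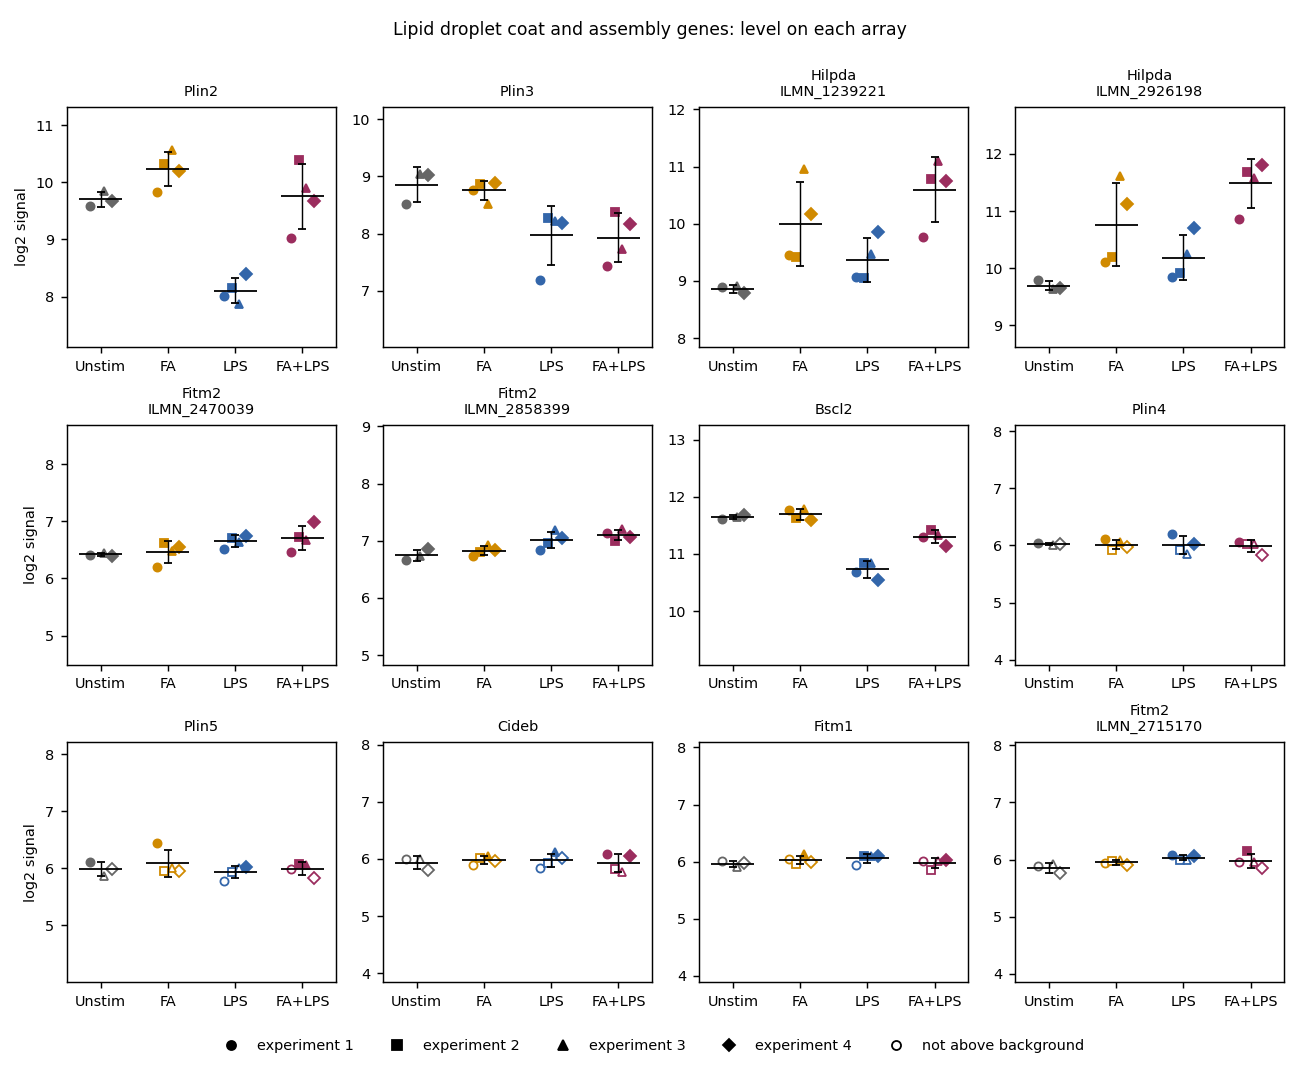
Log2 signal (vertical axis) of the 12 probes on each of the 15 arrays in the 4 groups, with 1 point per array, its shape giving the experiment, an open symbol where the probe was not above background, a horizontal line at the group mean and bars of 1 SD. Vertical ranges are equal in length but set at different levels. Plin2 was lowest on the 4 LPS arrays, both Hilpda probes were highest in FA+LPS by the group mean, and the 5 dim probes stayed near 6 in every group.

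Values below are log2 signals after background correction and quantile normalization, and a difference is the first group minus the second, ± its standard error. A difference was called where its limma p-value was below 0.05 after Benjamini-Hochberg adjustment across the 24195 tested probes. All 12 probes were among those tested, and 7 of them, for 5 genes (Plin2, Plin3, Hilpda, Fitm2 and Bscl2), were above background on all 15 arrays. With LPS alone against Unstim 4 of the 12 probes were called, 1 higher and 3 lower, where 17.9% of all tested probes were called, 7.68% higher and 10.2% lower. With FA against Unstim limma called 0 of 12, against 0.00413% of all probes, and 3 had an unadjusted p below 0.05, as did 684 of all probes. FA+LPS against FA gave 3 calls, 1 higher and 2 lower, where the background was 16.3%, with 7.23% higher and 9.02% lower. FA+LPS against LPS gave 2 calls, both higher, where 0.521% of all probes were called and 0.26% were higher. FA+LPS against Unstim gave 5 calls, 3 higher and 2 lower, against 14.8% of all probes, with 6.32% higher and 8.5% lower. These comparisons share groups, so their values are given side by side and not as separate evidence.

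Plin2, on chromosome 4, encodes perilipin 2 and fell to its lowest level with LPS alone. Its log2 signal was 9.59, 9.84 and 9.67 in Unstim replicates 1, 3 and 4, and FA replicates 1 to 4 gave 9.84, 10.32, 10.57 and 10.20. The 4 LPS arrays read 8.01, 8.15, 7.87 and 8.39. FA+LPS read 9.03, 10.39, 9.91 and 9.68. Every LPS array lay below every array of the other 3 groups, whereas FA+LPS overlapped with both Unstim and FA. LPS against Unstim differed by -1.59 ± 0.24, a 3.02-fold lower signal (adjusted p = 0.000246), and by -1.68 with the experiment as a block (2.93e-05). The difference was -1.57, -1.97 and -1.28 within experiments 1, 3 and 4, and -1.57 and -1.89 within the slides that held both groups (slides 1 and 3). Slides, here and below, were inferred from the number that array codes share.

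When fatty acid had been loaded before LPS, Plin2 stood 3.13-fold above its level with LPS alone. The FA+LPS against LPS difference was 1.65 ± 0.23 (adjusted p = 0.00366, or 0.000892 with the experiment as a block). It was 1.02, 2.25, 2.04 and 1.29 within experiments 1 to 4. Of the 7 neutrophil markers tested, S100a8 alone was called in the same comparison, where 0.354% of all genes rose. It was 1.11 ± 0.20 higher (adjusted p = 0.0211, and 0.798 with median scaling). That call was lost without any 1 of LPS replicates 1 and 4 or FA+LPS replicates 1, 2 and 3 (adjusted p between 0.0626 and 0.0754). The median difference of the 7 was -0.02. The part of S100a8 in the Plin2 result was not tested. For Plin2 FA+LPS against Unstim differed by 0.05, with a 95% interval of -0.47 to 0.58 (adjusted p = 0.947). FA+LPS against FA differed by -0.48 ± 0.23 (adjusted p = 0.200). That value reached an adjusted p of 0.0368 with the slide as a block (-0.61), and of 0.0313 without FA+LPS replicate 2 (-0.69). It was not called with the experiment as a block (0.0777), and it shrank to -0.24 (0.509) without FA+LPS replicate 1. It turned to 0.04 when arrays were scaled to a common median in place of quantile normalization, and was -0.43 (0.517) when FA replicate 1 was left out as well.

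Without LPS the fatty acid difference of Plin2 was smaller and missed the threshold. FA against Unstim differed by 0.53 ± 0.24 (95% interval 0.01 to 1.05, adjusted p = 1), with 0.25, 0.72 and 0.53 within experiments 1, 3 and 4. The fatty acid difference with LPS minus that without it, the interaction, was 1.12 ± 0.33 (adjusted p = 0.688, and 0.130 with the experiment as a block). None of the 12 probes was called for the interaction, where 0.0248% of all probes were. An unadjusted p below 0.05 was reached by 2 of the 12, Plin2 and Bscl2, and by 1064 probes in all. Averaged over cells with and without LPS, the fatty acid difference of Plin2 was 1.09 ± 0.17, or 2.13-fold (adjusted p = 0.0172), and Plin2 was the 1 probe of the 12 called there, where the background was 0.141%. That call was lost without Unstim replicate 1 (adjusted p = 0.0606), Unstim replicate 3 (0.0568), Unstim replicate 4 (0.0726) or FA replicate 4 (0.0507), and without experiment 2 (0.103). With median scaling the LPS against Unstim difference of Plin2 was -1.36 (adjusted p = 0.102) and the FA+LPS against LPS difference was 1.74 (0.401). Leaving out FA replicate 1 as well, a setting chosen after the data were seen, gave the same differences with adjusted p-values of 0.00785 and 0.0462.

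**Figure D2:**
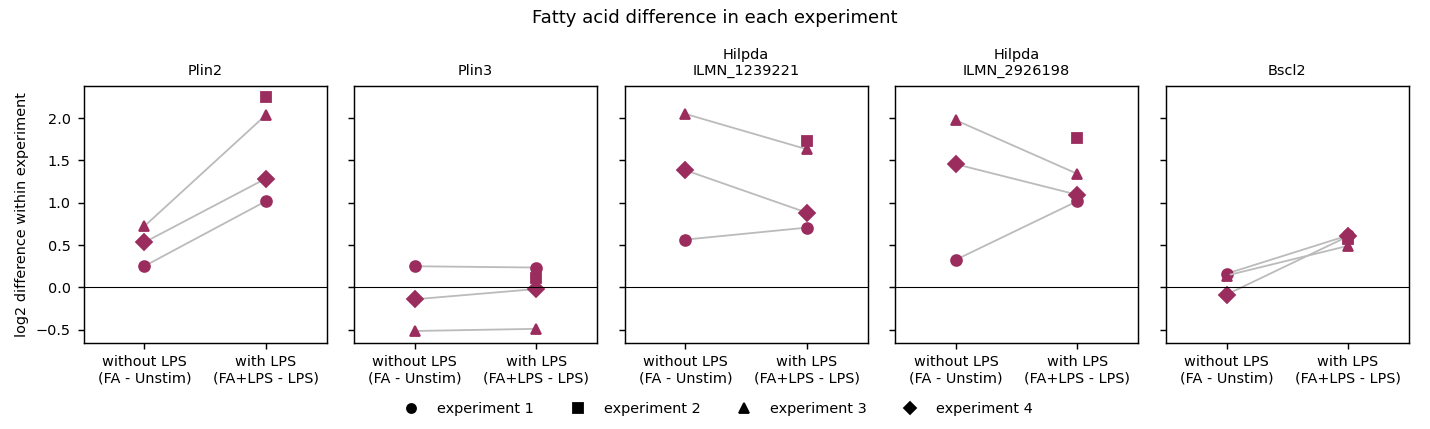
Log2 difference with fatty acid inside each experiment (vertical axis), without LPS (FA minus Unstim) and with LPS (FA+LPS minus LPS), for the 5 probes of Plin2, Plin3, Hilpda and Bscl2. Each point is 1 experiment and lines join the values of an experiment; experiment 2 has no Unstim array. Plin2 and Bscl2 had larger values with LPS in each of experiments 1, 3 and 4, and the interaction was called for no probe.

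Plin3, on chromosome 17, encodes perilipin 3, a coat protein that moves from the cytosol onto young droplets, and it was lower wherever LPS was present. Unstim replicates 1, 3 and 4 gave 8.51, 9.04 and 9.02, and FA replicates 1 to 4 gave 8.76, 8.88, 8.52 and 8.88. LPS replicates gave 7.19, 8.27, 8.21 and 8.19. FA+LPS replicates gave 7.43, 8.38, 7.72 and 8.17. The 8 arrays with LPS lay below the 7 without it. LPS against Unstim differed by -0.89 ± 0.26 (1.85-fold lower, adjusted p = 0.0279), FA+LPS against FA by -0.83 ± 0.24 (0.0283), and FA+LPS against Unstim by -0.93 ± 0.26 (0.0257). With fatty acid the values differed little: FA+LPS against LPS gave -0.04 (95% interval -0.56 to 0.48) and FA against Unstim gave -0.10 (-0.66 to 0.46).

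The 3 Plin3 calls lay near the threshold and depended on single arrays. LPS against Unstim was no longer called when LPS replicate 1 was left out (adjusted p = 0.0543), or Unstim replicate 3 (0.111) or Unstim replicate 4 (0.112). The call against FA was lost without FA replicate 1 (0.0607), FA replicate 2 (0.0734), FA replicate 4 (0.0708), FA+LPS replicate 1 (0.0902) or FA+LPS replicate 3 (0.0785). FA+LPS against Unstim was not called without FA+LPS replicate 1 (0.0710), FA+LPS replicate 3 (0.0671), Unstim replicate 3 (0.108) or Unstim replicate 4 (0.109). With the experiment as a block all 3 Plin3 calls were kept, at adjusted p-values of 0.000860, 0.00154 and 0.000737. With median scaling all 3 were lost, at 0.460, 0.597 and 0.481, with the differences still negative.

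Plin4 and Plin5, on chromosome 17, encode perilipins best known from adipocytes and from oxidative tissues such as heart and muscle. Both were near background. Plin4 exceeded it on 6 arrays and read between 5.82 and 6.21 on all 15. Plin5 exceeded it on 5 arrays and read between 5.78 and 6.44. Neither was called in any of the 7 comparisons, and the signal left little room to measure a difference. Cideb, on chromosome 14, encodes a droplet protein known from liver, where it serves the lipidation of very-low-density lipoprotein. Its probe was above background on 4 arrays, on none of Unstim, and read between 5.78 and 6.11.

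Hilpda, on chromosome 6, had its highest group mean in cells given both fatty acid and LPS. Its probe ILMN_2926198 read 9.79, 9.64 and 9.66 in Unstim replicates 1, 3 and 4, and FA replicates 1 to 4 read 10.12, 10.20, 11.61 and 11.12. LPS replicates read 9.85, 9.92, 10.25 and 10.71. FA+LPS replicates read 10.87, 11.68, 11.59 and 11.80. All 12 treated arrays lay above the 3 Unstim arrays, and FA+LPS lay above LPS on this probe without overlap. The other probe, ILMN_1239221, ranged from 8.79 to 8.91 in Unstim, 9.41 to 10.96 in FA, 9.05 to 9.86 in LPS and 9.77 to 11.10 in FA+LPS. The difference between the 2 probes varied over the arrays with an SD of 0.157, so the probes moved together.

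For FA+LPS against Unstim the Hilpda difference was 1.79 ± 0.33 (3.46-fold, adjusted p = 0.00136) on ILMN_2926198 and 1.74 ± 0.36 (3.33-fold, adjusted p = 0.00310) on ILMN_1239221. Both calls were kept when any 1 of the 15 arrays was left out, and with median scaling (adjusted p = 0.0366 and 0.0308). In experiments 1, 3 and 4 the difference on ILMN_2926198 was 1.08, 1.95 and 2.14.

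The steps between these 2 groups were less certain. FA against Unstim gave 1.07 ± 0.33 and 1.14 ± 0.36 (adjusted p = 1 for both), although the groups did not overlap on either probe. Of all probes 4.65% had no overlap between FA and Unstim, and of the 12 probes 2 did, both of Hilpda. Within experiments 1, 3 and 4 the FA difference of ILMN_2926198 was 0.33, 1.98 and 1.46. The largest value came from experiment 3 and the smallest from experiment 1. On the same probe experiment 1 also had the smallest LPS against Unstim and FA+LPS against Unstim differences, 0.06 and 1.08. Its FA array had few probes above background. Without that array the FA against Unstim difference of ILMN_2926198 was 1.28, still not called. LPS against Unstim gave 0.49 ± 0.33 and 0.50 ± 0.36 (adjusted p = 0.415 and 0.445). On ILMN_2926198 that difference was 0.06, 0.61 and 1.05 within experiments 1, 3 and 4, and it was 0.31 without LPS replicate 4. The LPS and Unstim arrays of experiment 4 lay on different slides.

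FA+LPS against LPS gave 1.30 ± 0.30 for ILMN_2926198 of Hilpda (adjusted p = 0.0881) and 1.24 ± 0.33 for ILMN_1239221 (0.144). Within experiments 1 to 4 the values on ILMN_2926198 were 1.02, 1.76, 1.34 and 1.09, so each experiment had the higher level with fatty acid. With the experiment as a block these 2 differences were called, at adjusted p-values of 0.0167 and 0.0225. FA+LPS against FA gave 0.72 ± 0.30 and 0.60 ± 0.33 (adjusted p = 0.141 and 0.286, or 0.0443 and 0.107 with the block). Without FA replicate 3, the highest of its group, these became 1.01 (adjusted p = 0.0221) and 0.92 (0.0460). Leaving out FA+LPS replicate 1 or FA replicate 3 also brought FA+LPS against LPS past the threshold on ILMN_2926198, at 0.04998 and 0.0379. The fatty acid difference averaged over LPS was 1.18 ± 0.22 and 1.19 ± 0.24 (adjusted p = 0.0588 and 0.0894, or 0.0112 and 0.0116 with the block). For Hilpda the interaction was 0.24, with a 95% interval of -0.72 to 1.20, on ILMN_2926198 and 0.10 (-0.94 to 1.14) on ILMN_1239221.

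Fitm1 and Fitm2 encode endoplasmic reticulum proteins that partition triglyceride into droplets, Fitm1 mainly in muscle and Fitm2 widely. Fitm1, on chromosome 14, was above background on 5 arrays, on none of Unstim, and read between 5.85 and 6.13. Fitm2, on chromosome 2, had 2 probes above background on every array and another, ILMN_2715170, above it on 3 arrays. On ILMN_2858399 Unstim replicates 1, 3 and 4 read 6.66, 6.73 and 6.85, and FA replicates 1 to 4 read 6.74, 6.80, 6.92 and 6.85. LPS replicates read 6.84, 6.97, 7.19 and 7.05. FA+LPS replicates read 7.14, 6.99, 7.20 and 7.07. The LPS groups were slightly higher, with overlap between LPS and Unstim and none between FA+LPS and Unstim or FA. On the compressed scale of dim signals the difference was 0.27 ± 0.08 for LPS against Unstim (adjusted p = 0.0386), 0.27 ± 0.08 for FA+LPS against FA (0.0249) and 0.35 ± 0.08 for FA+LPS against Unstim (0.00879).

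The second Fitm2 probe, ILMN_2470039, gave 0.23, 0.25 and 0.29 in the same comparisons, none of them called (adjusted p = 0.215, 0.154 and 0.126). With the experiment as a block its FA+LPS against FA difference was called (0.0440), and it was called without FA+LPS replicate 1 in that comparison (0.0427) and against Unstim (0.0349). For ILMN_2858399 the LPS against Unstim call of Fitm2 was lost without Unstim replicate 1 (0.164), Unstim replicate 3 (0.114), FA replicate 2 (0.0512), LPS replicate 2 (0.0538), LPS replicate 3 (0.109) or LPS replicate 4 (0.0852), and without experiment 2 (0.0737). Its FA+LPS against FA call was lost without FA replicate 1 (0.0715), FA replicate 2 (0.0618), FA+LPS replicate 1 (0.0632) or FA+LPS replicate 3 (0.0777), and without experiment 2 (0.0644). FA+LPS against Unstim was not called without Unstim replicate 1 (0.0522). Median scaling ended all 3 Fitm2 calls, at 0.321, 0.134 and 0.169, with larger differences (0.33, 0.42 and 0.45).

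Bscl2, on chromosome 19, encodes seipin, which holds the growing droplet to the endoplasmic reticulum, and it was lowest with LPS alone. Unstim replicates 1, 3 and 4 read 11.61, 11.65 and 11.68, and FA replicates 1 to 4 read 11.77, 11.63, 11.79 and 11.60. LPS replicates read 10.69, 10.85, 10.85 and 10.54. FA+LPS replicates read 11.30, 11.41, 11.34 and 11.14. The LPS arrays were the lowest, the FA+LPS arrays lay between them and the rest, and neither LPS group overlapped with any other group. LPS against Unstim differed by -0.92 ± 0.09 (1.89-fold lower, adjusted p = 2.18e-06). FA+LPS against LPS differed by 0.57 ± 0.08 (1.48-fold higher, adjusted p = 0.00420), with 0.61, 0.57, 0.49 and 0.60 within experiments 1 to 4. These 2 calls were kept when any 1 array was left out.

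FA+LPS remained below FA for Bscl2, by -0.40 ± 0.08 (adjusted p = 0.00235), and below Unstim, by -0.35 ± 0.09 (adjusted p = 0.0116), but with median scaling these differences turned to 0.21 and 0.05 (adjusted p = 0.778 and 0.973). The call against Unstim was also lost without Unstim replicate 4 (0.0533) and with cyclic loess normalization (-0.25, adjusted p = 0.0748). LPS against Unstim became -0.54 with median scaling (adjusted p = 0.418), and FA+LPS against LPS became 0.59 (adjusted p = 1). With FA replicate 1 left out as well, the median-scaled differences were -0.12 against FA, 0.05 for FA+LPS against Unstim and -0.54 for LPS against Unstim, none of them called (adjusted p = 0.822, 0.930 and 0.0694). FA against Unstim gave 0.05 (95% interval -0.13 to 0.23). The interaction was 0.52 ± 0.12 (adjusted p = 0.291, and 0.0921 with the block). The fatty acid difference averaged over LPS was 0.31 ± 0.06 (adjusted p = 0.0588, or 0.0306 with the block), and it was called without FA+LPS replicate 4 (0.0269).

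**Figure D3:**
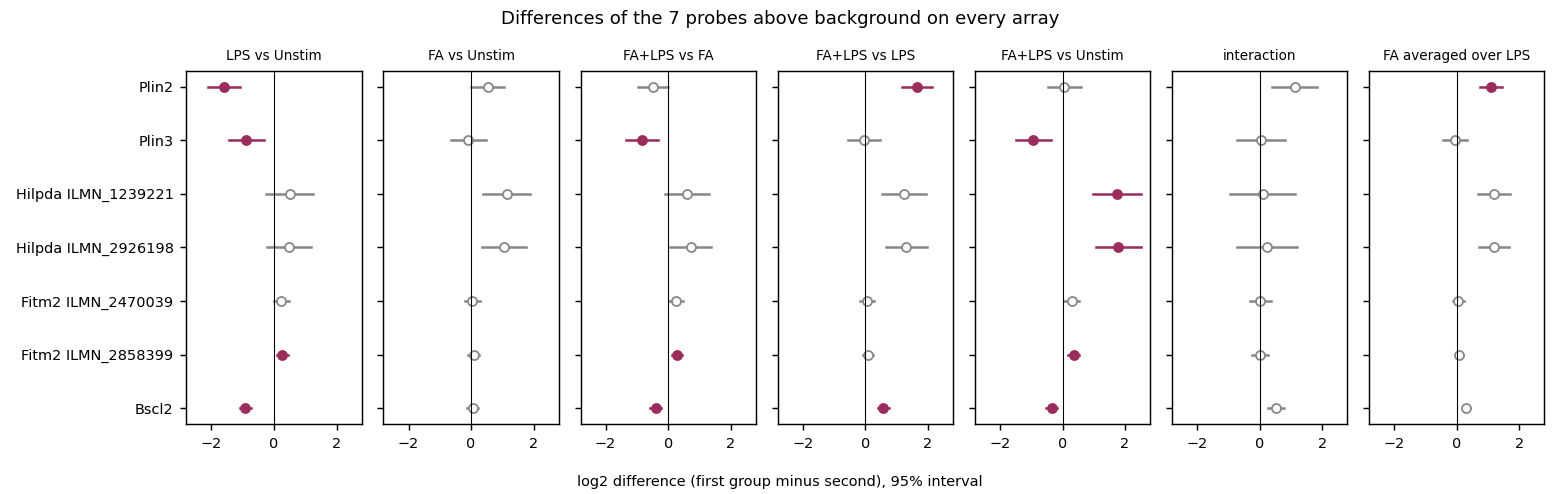
Log2 difference (horizontal axis, first group minus second) with its 95% interval for the 7 probes above background on every array, in the 7 comparisons. Filled symbols mark adjusted p below 0.05. With LPS against Unstim Plin2, Plin3 and Bscl2 lay below 0, and with FA+LPS against LPS Plin2 and Bscl2 lay above 0. The Bscl2 differences of FA+LPS against FA and against Unstim turned positive with median scaling. With FA replicate 1 also left out, the median-scaled difference against FA was -0.12 and that against Unstim stayed at 0.05.

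The overlap of groups was also counted. LPS and Unstim did not overlap on 7 of the 12 probes, where 26.2% of all probes had no overlap. Of these 7, 3 were lower (Plin2, Plin3 and Bscl2, all called) and 4 were higher (both Hilpda probes and Fitm2 ILMN_2470039 and ILMN_2715170, none called), against 14.5% and 11.7% of all probes. The higher probes stand for Hilpda and Fitm2 only. ILMN_2715170 exceeded background on 0 Unstim, 0 FA, 2 LPS and 1 FA+LPS arrays. It thus entered the tests only through arrays with LPS, and its place in this count carries no weight. For FA+LPS against LPS this held for 3 of 12 (Plin2, Bscl2 and ILMN_2926198 of Hilpda), against 4.07% of all probes. FA+LPS against FA had 3 of 12, against 18.5%, and FA+LPS against Unstim had 6 of 12, against 23.6%. The median difference over the 12 probes was 0.07 for LPS against Unstim and 0.05 for FA+LPS against LPS, beside -0.01 and 0.00 over all tested probes.

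Other genes of droplet biology were read from lists, each gene by its brightest tested probe. Of 9 genes of droplet lipolysis 7 were tested, and 5 fell with LPS against Unstim and 0 rose, where 12.8% of all 12984 genes fell. Daglb, a diacylglycerol lipase, fell by 3.10 ± 0.13 on the log2 scale (adjusted p = 7.54e-10). Lipa, the lysosomal acid lipase, fell by 2.29 ± 0.42 (adjusted p = 0.00124). Mgll, the monoglyceride lipase, fell by 2.14 ± 0.17 (adjusted p = 3.60e-07). Abhd5, the co-activator of adipose triglyceride lipase, fell by 0.83 ± 0.12 (adjusted p = 0.000159). In loaded cells 5 of the 7 fell with LPS as well, where the background was 11.1%, including Pnpla2, adipose triglyceride lipase itself, at -0.86 ± 0.18 (adjusted p = 0.00292). With fatty acid limma called 0 of these 7 in FA against Unstim and 0 in FA+LPS against LPS. An unadjusted p below 0.05 was reached by 1 in each, and by 393 and 1296 of all 12984 genes. With median scaling 2 of the 7 were called lower with LPS, with and without fatty acid: Daglb (-2.50 with fatty acid and -2.81 without) and Mgll (-1.86 and -2.03). Over all tested probes that scaling called 1430 in place of 3932 with fatty acid and 1486 in place of 4334 without.

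Of 41 other droplet proteins 35 were tested, and with LPS against Unstim 1 rose and 8 fell, where 8.62% and 12.8% of all genes did. Rab3gap2, part of the exchange factor for the droplet GTPase Rab18, fell by 1.14 ± 0.12 (adjusted p = 8.59e-06). Pcyt1a, the enzyme that sets phosphatidylcholine synthesis for growing droplets, fell by 0.76 ± 0.18 (adjusted p = 0.00837). With the experiment as a block 3 rose and 11 fell, and with median scaling 0 rose and 1 fell. Over all tested probes these settings called 5419 and 1486 in place of 4334. FA+LPS against FA had 2 that rose and 4 that fell, where 8.08% and 11.1% of all genes did. Hsd17b7, an enzyme of cholesterol synthesis, was the 1 gene of this list called with fatty acid, 1.27 ± 0.20 higher in FA+LPS than in LPS (adjusted p = 0.00942, and 0.357 with median scaling), where 0.354% of all genes rose.

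Genes known to respond to PPAR receptors, which bind fatty acids, moved in both directions. Of 25 genes 22 were tested, and with LPS against Unstim 1 rose and 6 fell, where 8.62% and 12.8% of all genes did. Cd36, a fatty acid receptor, fell by 1.02 ± 0.11 (adjusted p = 9.75e-06). Fabp3, a fatty acid binding protein, rose by 1.86 ± 0.21 (adjusted p = 1.60e-05). With FA+LPS against LPS 1 of the 22 rose, where 0.354% of all genes did: Slc25a20, the mitochondrial carnitine carrier, by 0.89 ± 0.12 (adjusted p = 0.00378). There 4 rose with the experiment as a block, which called 428 of all tested probes in place of 126. Slc25a20 was not called with median scaling (adjusted p = 1), and for LPS against Unstim that scaling left 1 PPAR gene higher (Fabp3) and 1 lower (Cd36). Averaged over LPS, 2 of the 22 rose with fatty acid and 0 fell, where 0.0693% and 0.1% of all genes did. These were Slc25a20, by 0.68 ± 0.09 (adjusted p = 0.00789), and Cd36, by 0.46 ± 0.08 (0.0240), both with an adjusted p of 1 under median scaling. The averaged Cd36 call was lost without any 1 of Unstim replicates 1, 3 and 4, FA replicates 1 and 4, LPS replicates 1 and 3 or FA+LPS replicates 2 and 3 (adjusted p between 0.0501 and 0.0915). FA against Unstim gave 0 calls by limma among the 22, and 6 had an unadjusted p below 0.05, as did 393 of all 12984 genes. Angptl4, a secreted inhibitor of lipoprotein lipase, was 2.37 ± 0.62 higher in FA+LPS than in Unstim (adjusted p = 0.0158, and 0.0609 without Unstim replicate 4), beside 2.66 ± 0.57 for FA+LPS against LPS (adjusted p = 0.0585).

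Genes known to respond to hypoxia-inducible factor, the other known regulator of Hilpda, were called with LPS in both directions. Of 23 genes 19 were tested. With LPS against Unstim 6 rose and 4 fell, where 8.62% and 12.8% of all genes did. Slc2a1, the glucose transporter GLUT1, rose by 1.09 ± 0.22 (adjusted p = 0.00214). Pgk1, a glycolytic enzyme, rose by 0.92 ± 0.11 (adjusted p = 1.77e-05). Vegfa, the vascular growth factor, fell by 0.94 ± 0.22 (adjusted p = 0.00608). With FA+LPS against FA 7 rose and 1 fell, where 8.08% and 11.1% of all genes did, and with the experiment as a block 7 rose and 3 fell. The block called 5035 of all tested probes there in place of 3932. For FA+LPS against LPS limma called 0 of the 19, with or without that block, and 4 had an unadjusted p below 0.05, as did 1296 of all 12984 genes. With median scaling 2 rose and 0 fell for LPS against Unstim, and neither Pgk1 (adjusted p = 0.0525) nor Vegfa (0.182) was called.

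The genes whose values followed Plin2 most closely over the 15 arrays were sought by the root mean square difference of log2 values, each centred on its own mean. Etfb, a subunit of the electron transfer flavoprotein, was nearest at 0.304. Acaa2, a mitochondrial thiolase, followed at 0.429, Klf7, a transcription factor, at 0.479, Retsat, retinol saturase, at 0.499 and Gab1, a signalling adaptor, at 0.508. The median over all 12983 other genes was 0.884. The group means of Etfb were 10.1 in Unstim, 10.7 in FA, 9.01 in LPS and 10.1 in FA+LPS, so it too was lowest with LPS alone. For Hilpda, read by ILMN_2926198, the nearest were Noct, a circadian phosphatase, at 0.466, Akr1b8, an aldo-keto reductase, at 0.468, Rims3 at 0.486, Slc25a20 at 0.487 and Man2a1, a Golgi mannosidase, at 0.503, beside a median of 0.791. The 5 genes near Hilpda were no closer to it than the second nearest gene was to Plin2. The measure favours genes with a similar size of change, and the arrays of an experiment share their source.

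**Figure D4:**
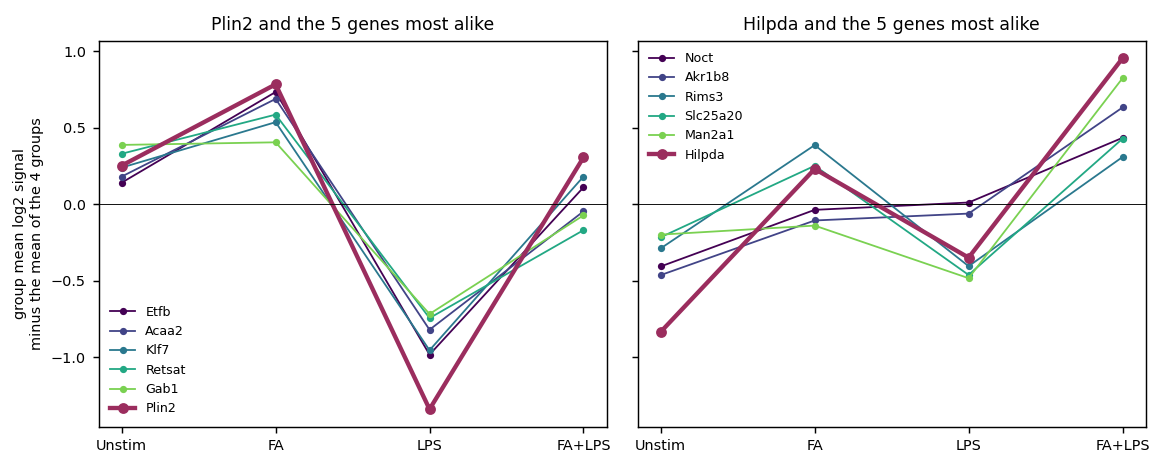
Group means of the log2 signal, each centred on the mean of the 4 groups (vertical axis), for Plin2 with its 5 nearest genes and for Hilpda (ILMN_2926198) with its 5 nearest. The Plin2 panel shows the lowest point of every line in LPS. The Hilpda panel shows Hilpda highest in FA+LPS and lowest in Unstim.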

How the data were processed

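Per the labels' protocols, biotin-labelled RNA was hybridised in 1 colour to Illumina bead arrays. The authors deposited log2 signals of 45281 probes, not normalized between arrays and without detection p-values, and a value table of log2 values for 25784 probes, which equals a quantile normalization of the deposited signals over these probes to within 0.00163. The sources used here do not give the software or any background step behind them.

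From the deposited log2 signals, normexp background correction (offset 50) and quantile normalization over all probes were computed in R 4.3.3 with limma 3.58.1. The offset compresses differences of dim probes. A probe was above background where it exceeded the 95th percentile of the 19497 probes outside the value table on that array, and probes above it on 3 or more arrays entered the tests. A model of group means was fitted to the 15 arrays together with lmFit and eBayes, with 11 residual degrees of freedom and a prior worth 3.26, and p-values were 2-sided. The procedure was tested on simulated data. Probes were named from the platform annotation: 21476 carried 1 symbol, 10 several and 4298 none.

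The members, gene lists and comparisons were chosen with earlier results of these data known. The text names all probes of the members, up to 4 called genes per list and comparison with the largest difference, the 5 genes nearest to Plin2 and to Hilpda, and marker genes where a result turns on them. Alternatives were median scaling, the authors' value table, no background correction, other filters, 1 probe per gene, experiment or slide as a block, array weights and leaving out arrays. The labels number the arrays by experiment and the design text calls the 4 experiments independent, so the numbers pair the samples. The main fit had group as its only term and did not use this pairing, which entered only with the experiment as a block. Experiment 4 had FA on slide 1, LPS and FA+LPS on slide 2 and Unstim on slide 3. Its differences within the experiment, except FA+LPS against LPS, therefore also crossed slides. After removal of group means, arrays of 1 experiment correlated with medians of 0.187, 0.253, 0.266 and 0.197, against -0.0701 between experiments. The number of arrays limits the precision.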

Additional observations from a re-analysis of the deposited data

Results flagged for a closer look

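In groups of 4 arrays, 4 of 36 tested had a single array whose gap to its neighbour was a large share of the group's range. Chance alone flags about 5% of groups. Plin3 was lowest on LPS replicate 1, at 7.19 beside 8.19 for the next, a gap of 0.927 of the range, and without that array its LPS against Unstim difference was -0.63 (adjusted p = 0.0543). Fitm1 was lowest on the same array, at 5.94 beside 6.09 (0.926). Plin5 was highest on FA replicate 1, at 6.44 beside 6.01 (0.875). Plin4 was lowest on FA+LPS replicate 4, at 5.82 beside 6.02 (0.851). The last 3 probes were near background on most arrays.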

How the results depend on the processing

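The members gave 15 calls over the 7 comparisons. All 15 were kept with the authors' normalized values, without background correction, without the filter on dim probes, with the filter at 12 arrays, with array weights, and with the experiment or the slide as a block. Leaving out experiment 2 ended 3. Median scaling ended 11 and turned 2, both of Bscl2: FA+LPS against FA to 0.21 and FA+LPS against Unstim to 0.05. With FA replicate 1 also left out, a setting chosen after the data were seen, 5 were kept, 9 ended and 1 turned (Bscl2, FA+LPS against Unstim, 0.05). Cyclic loess, also added after the data were seen, kept 14. Median scaling called 0 probes for LPS against Unstim, FA+LPS against FA, FA+LPS against LPS and the averaged fatty acid difference, and 2 for FA+LPS against Unstim. Without FA replicate 1 as well, these counts were 1, 0, 1, 0 and 3. Over all tested probes, in the same order, median scaling called 1486, 1430, 10, 0 and 1173 in place of 4334, 3932, 126, 34 and 3585. Without FA replicate 1 as well, it called 2388, 1887, 15, 0 and 1895. The replicate block, the experiment, gave 5 calls in place of 3 for FA+LPS against FA, 4 in place of 2 for FA+LPS against LPS and 4 in place of 1 for the averaged fatty acid difference, and it changed no other count by over 1.5 times. Over all tested probes the block gave 5035 calls in place of 3932, 428 in place of 126 and 121 in place of 34. The averaged count of the members was 2 with the authors' values, without background correction and with the filter at 12 arrays, 4 with the slide as a block, 3 with array weights and 0 without experiment 2. Over all tested probes it was 42, 42, 42, 65, 62 and 9 in the same order, in place of 34. Leaving out each array in turn gave 2 to 4 member calls for LPS against Unstim, 1 to 5 for FA+LPS against FA, 3 to 5 for FA+LPS against Unstim and 0 to 3 for the averaged difference. Over all tested probes the ranges were 3355 to 4501, 3408 to 4124, 2679 to 3772 and 12 to 59. The cause of these changes was not tested. Of 62 calls of list and marker genes, median scaling kept 28 and reversed 0.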
